A study of Homo sapiens with 18 samples.

Results

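The collagen genes were followed across IMR90 cells, a line of human lung fibroblasts, profiled by RNA-seq. Members were all rows of the count table whose gene symbol is COL, a number, A and a number, which gave 44 of 60623 genes. They were sorted by textbook class into 11 fibrillar, 6 basement membrane, 5 beaded filament, 4 transmembrane and 10 FACIT chains (which sit on the surface of fibrils), 2 multiplexins, 3 short chain and network-forming chains, 1 anchoring fibril chain and 2 others. Of the 44, 38 had enough reads to be tested, among 18151 genes tested in all.

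The cells were either irradiated or proliferating, and each state received RG7388, HDM201 or the solvent DMSO, which gave the groups IR_RG7388, IR_HDM201, IR_DMSO, Prolif_RG7388, Prolif_HDM201 and Prolif_DMSO with 3 libraries each. RG7388 (idasanutlin) and HDM201 (siremadlin) block MDM2, the ubiquitin ligase that keeps p53 levels low. In irradiated cells compound or solvent was added 4 days after the radiation and RNA was taken on day 11. For proliferating cells the times of treatment and collection were not given in the sources used here. Irradiation and time in culture therefore cannot be told apart when irradiated cells are set against proliferating ones. Changes said to follow irradiation are differences between these groups. The compounds were given at different doses, so their values stand side by side and were not compared with each other. All groups are 1 cell line. For its cell culture work the study counts each well of a plate as a biological replicate. The labels do not say whether the replicates were separate irradiations, so p-values measure the spread between these libraries, which may be technical. In bulk samples fewer producing cells and less RNA per cell cannot be told apart.

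Collagens are secreted or membrane-bound proteins built from alpha chains that wind together into a long helix. Fibrillar chains pack into the banded fibrils that give tissue its tensile strength, and fibroblasts are a main source of them. Type IV chains form the sheet-like network of basement membranes, type VI chains form beaded filaments close to the cell surface, and transmembrane collagens are anchored in the plasma membrane with their helical part outside. Because a helix is assembled from partner chains, each class was asked whether its chains changed together after irradiation and with MDM2 inhibition.

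The type IV chains are encoded as head-to-head gene pairs, and part of the stretch between the starts of each pair is shown because the COL4A1/COL4A2 pair fell and the COL4A5/COL4A6 pair rose after irradiation. Both were read from RefSeq (GRCh38.p14, plus strand, 5′ to 3′), whose promoter table matched 32 of the 44 collagens. The COL4A1 start (minus strand) and the COL4A2 start (plus strand) had 126 bases between them on chromosome 13, and the COL4A6 start (minus strand) and the COL4A5 start (plus strand) had 379 bases between them on chromosome X. Shown are the 100 bases beside the COL4A1 start and the 250 bases beside the COL4A5 start, and the rest of each stretch was not searched. Capitals mark CCAAT (or ATTGG on the other strand) and GGGCGG (or CCGCCC on the other strand).
COL4A1/COL4A2, chr13:110307158-110307257: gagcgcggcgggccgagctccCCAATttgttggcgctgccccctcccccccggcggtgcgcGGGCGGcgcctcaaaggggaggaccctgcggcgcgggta
COL4A5/COL4A6, chrX:108439588-108439837: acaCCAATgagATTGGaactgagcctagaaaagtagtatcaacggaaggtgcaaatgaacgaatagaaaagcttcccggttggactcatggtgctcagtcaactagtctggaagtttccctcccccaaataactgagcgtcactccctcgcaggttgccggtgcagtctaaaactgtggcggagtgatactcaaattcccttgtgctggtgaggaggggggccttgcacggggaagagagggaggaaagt
The COL4A1/COL4A2 window held 1 CCAAT and 1 GGGCGG in 100 bases, and 78% of its bases were G or C. The COL4A5/COL4A6 window held 2 CCAAT motifs and 0 GGGCGG in 250 bases, and 51.2% of its bases were G or C. Among 35116 listed start sites, CCAAT was found in 18.1% of the 100-base windows and 32% of the 250-base windows, and GGGCGG in 31.3% and 42.6% of them. These matches describe the letters only.

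Libraries held 21609198 to 66647700 counted reads. Levels are CPM, counts relative to the library's size, scaled by the trimmed mean of M values (TMM), and changes are log2 fold changes from edgeR's quasi-likelihood test, with a Benjamini-Hochberg adjusted p over all 18151 genes that was called under 0.05. Of the 23 chains that averaged at least 10 CPM, IR_DMSO replicate 1 had the highest level of its group in 17 (a median log2 difference of 0.38 from the other libraries of the group), and Prolif_HDM201 replicate 3 had the lowest in 18 (a median of -0.29). Prolif_HDM201 replicate 1 was highest in 19, Prolif_DMSO replicate 3 highest in 17 and IR_RG7388 replicate 3 lowest in 17. Their medians were smaller, at 0.22, 0.07 and -0.11. Over the 2000 most variable genes the root mean square log2 distance from the group was 0.873 for IR_DMSO replicate 1. It was higher in Prolif_HDM201 replicate 3 (1.16), IR_HDM201 replicate 1 (1.05) and Prolif_DMSO replicate 1 (1.01). IR_HDM201 replicate 2 (0.988) and Prolif_HDM201 replicate 1 (0.891) were higher too. Counts of collagens called are also given without IR_DMSO replicate 1 and Prolif_HDM201 replicate 3, which had the largest medians, for each comparison that includes either library. Both are later called the libraries that stood apart. They were picked by their collagen levels, so the recounts without them are not independent of that choice. All 8 fibroblast markers were detected in every group, with summed levels of 7420 to 7610 CPM in IR_RG7388, 7150 to 8140 CPM in IR_HDM201, 4460 to 5320 CPM in IR_DMSO and 8560 to 8970 CPM in Prolif_DMSO. VIM carried most of this sum, with means of 3190 CPM in IR_DMSO and 6230 CPM in Prolif_DMSO. In these groups LUM averaged 87.5 and 88.5 CPM and PDGFRB 118 and 351 CPM. Epithelial markers summed to at most 14.8 CPM, with 5 of 6 genes under 1 CPM in every group, and leukocyte markers to at most 2.14 CPM. Endothelial markers summed to 79.9 to 138 CPM, carried by TEK, while CDH5 averaged at most 0.0638 CPM and PECAM1 at most 0.255 CPM in any group. The part of these markers in the collagen changes was not tested.

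Collagen genes took a smaller share of counted reads after irradiation. They made up 3.25% ± 0.679 of reads in IR_DMSO and 7.19% ± 0.263 in Prolif_DMSO (SD, n = 3 each). The IR_DMSO libraries lay between 2.82% and 4.03%, the high one being replicate 1, and the Prolif_DMSO libraries between 7.02% and 7.49%, with no overlap. The share was 3.21% ± 0.203 in IR_RG7388 and 2.73% ± 0.12 in IR_HDM201, against 7.76% ± 0.181 in Prolif_RG7388 and 6.87% ± 0.596 in Prolif_HDM201 (SD, n = 3 each).

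To compare chains of different length, counts were divided by the length of the canonical transcript. Of these collagen counts per kilobase, fibrillar chains held 56.9% ± 7.45 in IR_DMSO and 56.3% ± 1.7 in Prolif_DMSO (SD, n = 3 each). Beaded filament chains held 32% ± 6.09 in IR_DMSO and 32% ± 1.54 in Prolif_DMSO. In both classes the IR_DMSO spread came from replicate 1, at 65.5% fibrillar and 25% beaded filament, against 52.4% to 52.8% and 35.4% to 35.7% in the other two. Basement membrane chains held 5.04% ± 0.0814 in IR_RG7388, 5.07% ± 0.204 in IR_HDM201, 6.51% ± 0.592 in IR_DMSO and 7.63% ± 0.321 in Prolif_DMSO. Transmembrane chains held 0.202% ± 0.0134 in IR_DMSO and 0.161% ± 0.0164 in Prolif_DMSO.

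**Figure D1:**
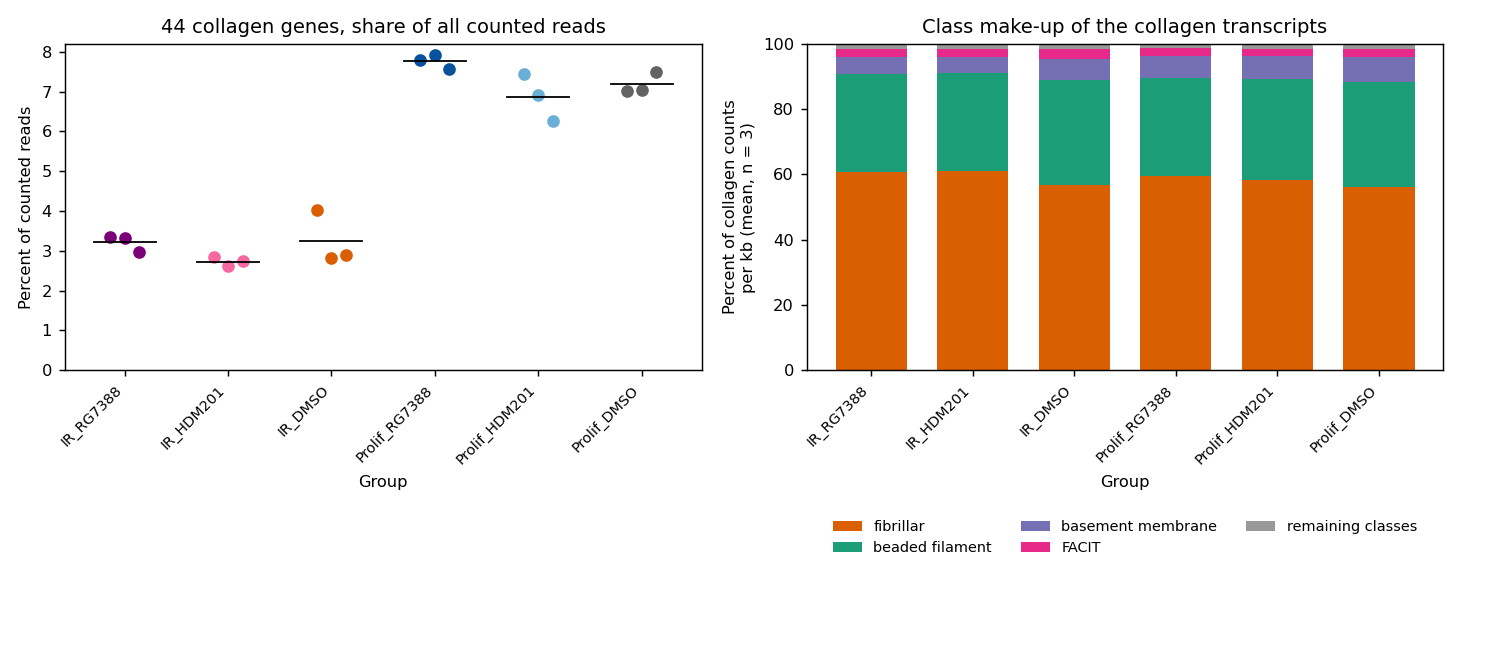
Share of counted reads that fell on the 44 collagen genes in each library (points, with the group mean as a line), and mean share of the collagen counts per kilobase held by each class (stacked bars, n = 3), by group. The 9 irradiated libraries lie between 2.61% and 4.03% of reads and the 9 proliferating libraries between 6.25% and 7.93%, while the mean fibrillar share lies between 56.3% and 61% in every group.

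The order of the chains changed at the top. Per kilobase, COL1A2 came first in IR_DMSO with 1420 ± 497 CPM per kb and COL1A1 followed with 1130 ± 370 CPM per kb, neighbours whose spreads overlapped (SD, n = 3 each). In Prolif_DMSO COL1A1 came first with 3750 ± 295 CPM per kb and COL1A2 followed with 2570 ± 185 CPM per kb. COL6A2 and COL6A1 came next in all 6 groups. COL3A1 and COL6A3 followed them in one order or the other, and COL4A2 came after these in every group.

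**Figure D2:**
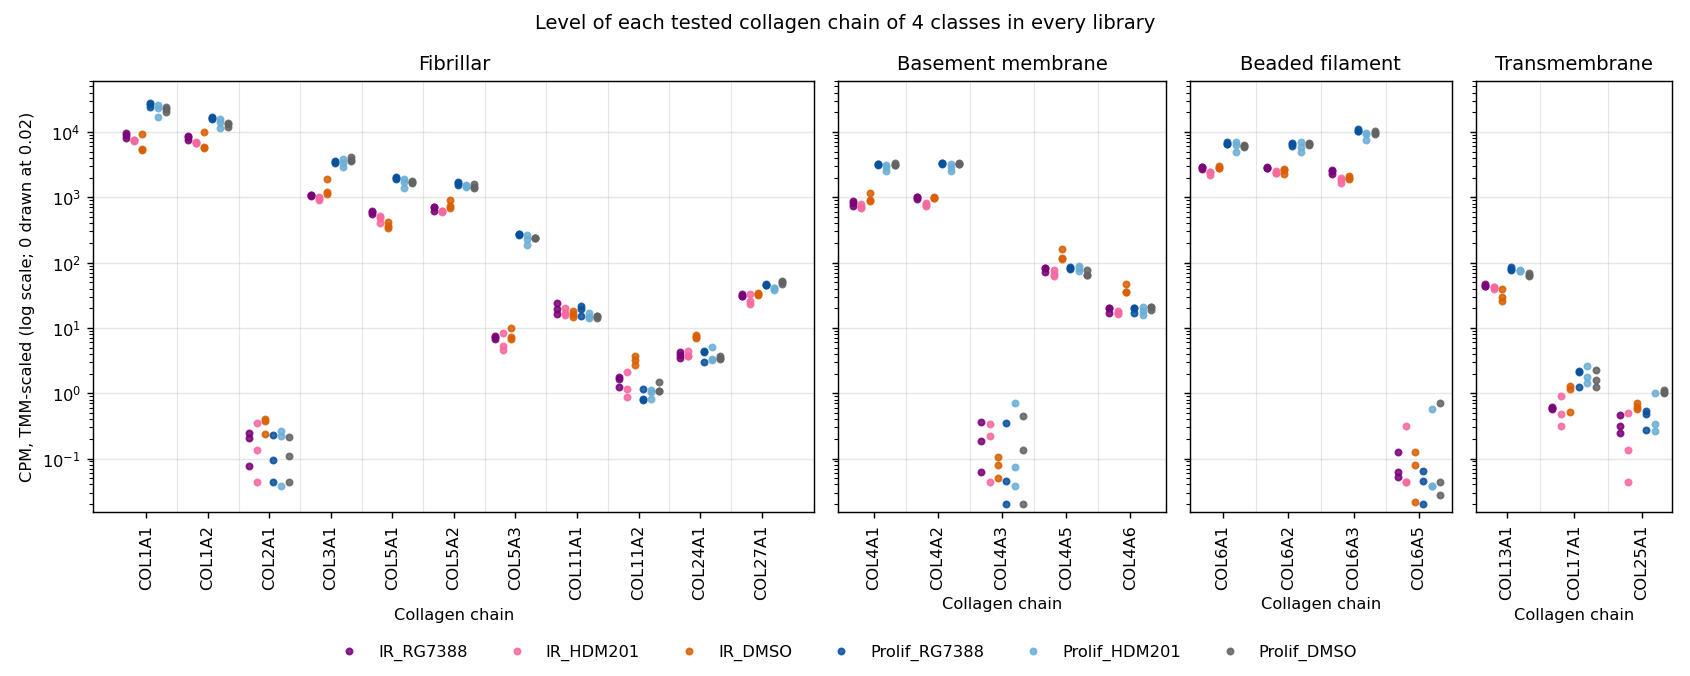
Level of each tested fibrillar, basement membrane, beaded filament and transmembrane chain in every library (points), in TMM-scaled CPM on a log axis with 0 drawn near the floor, coloured by group. The abundant fibrillar, type IV and type VI chains sit lower in the irradiated libraries, whereas COL4A5, COL4A6, COL24A1 and COL11A2 are highest in IR_DMSO.

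In IR_DMSO against Prolif_DMSO, 20 of the 38 tested collagens were called lower and 5 higher, where 25.3% of all genes tested were called lower and 26.3% higher (51.6% in all). The median log2 change of the collagens was -0.86, against 0.05 for all genes tested. Of the 23 chains that averaged at least 10 CPM, 20 fell and 2 rose, and of the 15 below that level none fell and 3 rose. That mean ran over all 18 libraries, so the proliferating levels helped to place a chain. COL5A3, for one, averaged 7.96 CPM in IR_DMSO and 238.9 CPM in Prolif_DMSO. Shares of all genes called above and below 10 CPM were not counted, so the split has no background. In 28 of the 38 the 3 irradiated libraries did not overlap the 3 proliferating ones, as was so for 61.2% of all genes tested. Without IR_DMSO replicate 1 and Prolif_HDM201 replicate 3, 22 collagens were called lower and 5 higher.

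Among fibrillar chains 7 of 11 fell and 2 rose, with a median of -0.86. COL1A1, the major chain of type I collagen, had 9178, 5241 and 5544 CPM in IR_DMSO, against 20290, 22420 and 23740 CPM in Prolif_DMSO. All irradiated libraries were below all proliferating ones (log2 fold change -1.74, SE 0.17, adjusted p 3.37e-08). Its partner COL1A2 had 10100, 5685 and 5783 CPM in IR_DMSO, against 11970, 13350 and 13760 CPM in Prolif_DMSO, again without overlap (-0.86, SE 0.16, adjusted p 0.000127). For both type I chains replicate 1 was the high irradiated library. COL3A1, the chain of type III collagen of distensible tissues, had 1904, 1211 and 1108 CPM in IR_DMSO, against 3569, 3668 and 4052 CPM in Prolif_DMSO (-1.42, SE 0.15, adjusted p 2.83e-08).

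The type V chains, which lie inside type I fibrils and limit their width, changed by unequal amounts. COL5A1 had 422.8, 339.9 and 367.6 CPM in IR_DMSO, against 1678, 1705 and 1766 CPM in Prolif_DMSO (-2.19, SE 0.12, adjusted p 5.69e-13). COL5A2 had 921.7, 721.8 and 680.3 CPM in IR_DMSO, against 1447, 1364 and 1573 CPM in Prolif_DMSO (-0.92, SE 0.11, adjusted p 1.66e-07). COL5A3, a less common type V chain, showed the largest change of the 38 collagens tested in this comparison. It had 9.84, 7.28 and 6.76 CPM in IR_DMSO, against 239.8, 236.8 and 240.2 CPM in Prolif_DMSO, a fitted 29.9-fold difference (-4.90, SE 0.19, adjusted p 9.79e-15). Replicate 1 was again the highest irradiated library.

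The fibrillar chains that rose were rare ones. COL24A1, a fibrillar chain known from developing bone, had 7.23, 7.83 and 7.03 CPM in IR_DMSO, against 3.32, 3.49 and 3.66 CPM in Prolif_DMSO (1.08, SE 0.18, adjusted p 2.3e-05). COL11A2, a cartilage fibril chain, had 3.66, 3.25 and 2.69 CPM in IR_DMSO, against 1.07, 1.47 and 1.07 CPM in Prolif_DMSO (1.44, SE 0.27, adjusted p 0.000107). Neither pair of groups overlapped. COL27A1, also known from cartilage, fell (-0.58, SE 0.11, adjusted p 0.000113). COL11A1, another chain of cartilage fibrils, was at 16.4 ± 1.81 CPM in IR_DMSO and 14.9 ± 0.519 CPM in Prolif_DMSO (SD, n = 3 each) and was not called (0.14, 95% interval -0.19 to 0.47, adjusted p 0.456). COL2A1, the major cartilage chain, had 11, 16 and 14 reads in IR_DMSO, against 14, 1 and 4 reads in Prolif_DMSO, and was not called (1.26, adjusted p 0.154).

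The basement membrane class split. COL4A1 and COL4A2, which together make the common type IV network, fell by like amounts. COL4A1 had 1173, 889.7 and 906.4 CPM in IR_DMSO, against 3144, 3143 and 3308 CPM in Prolif_DMSO (-1.69, SE 0.11, adjusted p 1.89e-11). COL4A2 had 982.9, 962 and 1015 CPM in IR_DMSO, against 3336, 3224 and 3248 CPM in Prolif_DMSO (-1.73, SE 0.10, adjusted p 9.69e-13). COL4A5 and COL4A6, which form a network together in some basement membranes and whose shared start region is the second one printed, rose. COL4A5 had 162.6, 118.5 and 112.5 CPM in IR_DMSO, against 65, 63.8 and 77.1 CPM in Prolif_DMSO (0.93, SE 0.13, adjusted p 1.59e-06). COL4A6 had 47, 36 and 35.5 CPM in IR_DMSO, against 20.6, 18.6 and 20.6 CPM in Prolif_DMSO (0.98, SE 0.13, adjusted p 9.69e-07). In both, every irradiated library exceeded every proliferating one, and replicate 1 was the highest. COL4A3, a chain of kidney and lung basement membranes, had 5, 2 and 3 reads in IR_DMSO, against 29, 0 and 5 reads in Prolif_DMSO, and was not called (-1.45, adjusted p 0.291). In the annotation the COL4A1 and COL4A2 genes overlap on opposite strands. The strand setting of the counting was not stated, so reads from the shared stretch may not have been told apart. The median over the 5 chains, -1.45, is the value of COL4A3, describes neither pair and lay between -1.75 and 0.01 when single libraries were left out.

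Of the beaded filament class the 3 abundant chains, COL6A1, COL6A2 and COL6A3, which assemble together into type VI collagen, fell. COL6A3, whose end fragment is endotrophin, had 1879, 1997 and 2090 CPM in IR_DMSO, against 9200, 9546 and 10320 CPM in Prolif_DMSO (-2.28, SE 0.11, adjusted p 4.82e-14). COL6A1 had 3004, 2754 and 2847 CPM in IR_DMSO, against 5989, 6263 and 5778 CPM in Prolif_DMSO (-1.07, SE 0.11, adjusted p 1.86e-08). COL6A2 had 2291, 2591 and 2690 CPM in IR_DMSO, against 6574, 6693 and 6200 CPM in Prolif_DMSO (-1.36, SE 0.11, adjusted p 3.96e-10). None of the 3 overlapped between the groups, and replicate 1 did not lie above the other IR_DMSO libraries for COL6A2 or COL6A3. COL6A5, a relative of COL6A3, had 1, 5 and 3 reads in IR_DMSO, against 46, 1 and 1 reads in Prolif_DMSO, and was not called (-1.96, adjusted p 0.14). The class median was -1.66 over 4 chains.

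Of the transmembrane class COL13A1 was the chain with the highest level, and the one that fell. COL13A1, found at cell junctions and at the nerve-muscle synapse, had 39.7, 26.1 and 29.9 CPM in IR_DMSO, against 69, 65 and 62.1 CPM in Prolif_DMSO (-1.03, SE 0.12, adjusted p 1.02e-07). COL17A1, a component of epithelial hemidesmosomes, had 1.17, 0.522 and 1.27 CPM in IR_DMSO, against 2.29, 1.59 and 1.23 CPM in Prolif_DMSO, and the groups overlapped (-0.81, SE 0.35, adjusted p 0.0605). COL25A1, a neuronal membrane collagen, had 33, 25 and 21 reads in IR_DMSO, against 67, 23 and 41 reads in Prolif_DMSO, and was not called (-0.73, adjusted p 0.227). The class median was -0.81 over 3 chains.

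Outside these classes, 8 further chains changed in DMSO. COL15A1, a multiplexin of basement membrane zones, had 21.3, 23.1 and 21.5 CPM in IR_DMSO, against 189.4, 183.9 and 192.7 CPM in Prolif_DMSO (-3.10, SE 0.11, adjusted p 6.16e-16). The other multiplexin, COL18A1, whose end fragment is endostatin, fell too (-1.16, SE 0.14, adjusted p 3.3e-07). COL7A1, the chain of the anchoring fibrils under epithelia, had 175.5, 112.2 and 105.7 CPM in IR_DMSO, against 333.9, 329.1 and 366.1 CPM in Prolif_DMSO (-1.39, SE 0.17, adjusted p 1.17e-06). Of the FACIT chains COL12A1 fell (-1.31, adjusted p 1.09e-08), as did COL16A1 (-1.10, adjusted p 5.14e-08). COL14A1 fell as well (-0.87, adjusted p 1.85e-05), though limma on log2 FPKM did not call it (adjusted p 0.0987 to 0.154). COL9A2 (0.44, adjusted p 0.0972) and COL9A3 (-0.22, adjusted p 0.657), chains of type IX collagen of cartilage, were not called.

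The short chain class gave weak calls. COL10A1, a marker of hypertrophic cartilage, had 15, 32 and 20 reads in IR_DMSO, against 15, 4 and 7 reads in Prolif_DMSO (1.42, SE 0.54, adjusted p 0.0328). The call was lost without Prolif_DMSO replicate 1, 2 or 3 or IR_DMSO replicate 2 or 3 (adjusted p 0.0579 to 0.176). COL8A1, a network chain of vessel walls, was at 155.3 ± 2.99 CPM in IR_DMSO and 186.4 ± 7.47 CPM in Prolif_DMSO (SD, n = 3 each). It was called lower (-0.26, SE 0.09, adjusted p 0.0206), but not without Prolif_DMSO replicate 3 (adjusted p 0.0806), and its sign turned when libraries were scaled to their totals alone (0.03). Its partner COL8A2 was not called (-0.57, adjusted p 0.0765).

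The abundant chains were also lower when both states carried a compound. In IR_RG7388 against Prolif_RG7388, 22 collagens were called lower and 1 higher, where 22.8% of all genes tested were lower and 21.3% higher, and the collagen median was -0.86 against 0.03 for all genes. In IR_HDM201 against Prolif_HDM201, 24 were called lower and 0 higher, where 23.8% of all genes tested were lower and 22.7% higher, and the collagen median was -1.20 against 0.01. For that 0, edgeR and DESeq2 each gave 0 at an unadjusted p under 0.05, and limma on log2(FPKM + 1) called 1. Without IR_DMSO replicate 1 and Prolif_HDM201 replicate 3, that comparison had 25 called lower and 0 higher. These comparisons share no library with each other or with the DMSO comparison.

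COL5A3 had 7.46, 6.75 and 7.34 CPM in IR_RG7388, against 274.8, 265.2 and 269.2 CPM in Prolif_RG7388 (-5.23, SE 0.19, adjusted p 4.06e-15). It had 8.41, 4.66 and 5.29 CPM in IR_HDM201, against 267, 227.6 and 186.5 CPM in Prolif_HDM201 (-5.17, SE 0.19, adjusted p 6.97e-15). COL6A3 changed by -2.10 under RG7388 and -2.28 under HDM201, and COL15A1 by -2.95 and -2.96. In all, 20 chains were called lower in each of the 3 irradiation comparisons and 0 were called higher in each. Of these 20, limma on log2 FPKM did not call COL8A1 in any of the 3 comparisons (adjusted p 0.283 to 0.335 under RG7388). It did not call COL14A1 in DMSO or under HDM201, or COL27A1 under HDM201. The share of all genes tested that was called alike in all 3 was not counted, so these counts have no background. The class medians were -1.0 under RG7388, -1.03 under HDM201 and -0.86 in DMSO for fibrillar chains, -0.05, -0.47 and -1.45 for basement membrane chains, -1.21, -1.33 and -1.66 for beaded filament chains, and -0.86, -1.03 and -0.81 for transmembrane chains.

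COL17A1, COL9A3, COL9A2 and COL8A2 were called under a compound and not in DMSO, a difference tested only by the state comparison given further on. COL8A1 and COL11A2, also given here, were called in DMSO too. COL17A1 fell under RG7388 (-1.64, adjusted p 0.00109) and HDM201 (-1.67, adjusted p 0.000864), calls that limma on log2 FPKM did not give in every setting (adjusted p 0.0639 for RG7388 and 0.144 to 0.165 for HDM201). COL9A3 was called lower under both (-1.34, adjusted p 0.0134, and -1.34, adjusted p 0.015), but lost the first call when Prolif_RG7388 replicate 3 or IR_RG7388 replicate 2 was left out (0.0502 to 0.075) and the second when IR_HDM201 replicate 1 or 2 was (0.052 to 0.0562). COL9A2 was called lower under HDM201 (-0.94, adjusted p 0.00209; 0.0619 to 0.0752 with limma), as was COL8A2 (-0.71, adjusted p 0.0408). The COL8A2 call was lost without Prolif_HDM201 replicate 1 or 2 or IR_HDM201 replicate 1 or 3 (adjusted p 0.0792 to 0.154), and that of COL8A1 under HDM201 (-0.27, adjusted p 0.0204) without IR_HDM201 replicate 2 or 3 (adjusted p 0.0696 to 0.0768). COL11A2 was the 1 chain called higher under RG7388 (0.75, adjusted p 0.0441), a call lost without Prolif_RG7388 replicate 1 or 3 or IR_RG7388 replicate 2 or 3 (adjusted p 0.0988 to 0.157).

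Of the chains that rose in DMSO, COL4A5, COL4A6 and COL24A1 did not pass the test under either compound. COL4A5 was at -0.05 under RG7388 (95% interval -0.32 to 0.22, adjusted p 0.784) and at -0.25 under HDM201 (95% interval -0.52 to 0.03, adjusted p 0.116). COL4A6 was at 0.01 (95% interval -0.27 to 0.30) and -0.11 (95% interval -0.40 to 0.17), and COL24A1 at -0.01 (95% interval -0.42 to 0.39) and 0.00 (95% interval -0.40 to 0.40).

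**Figure D3:**
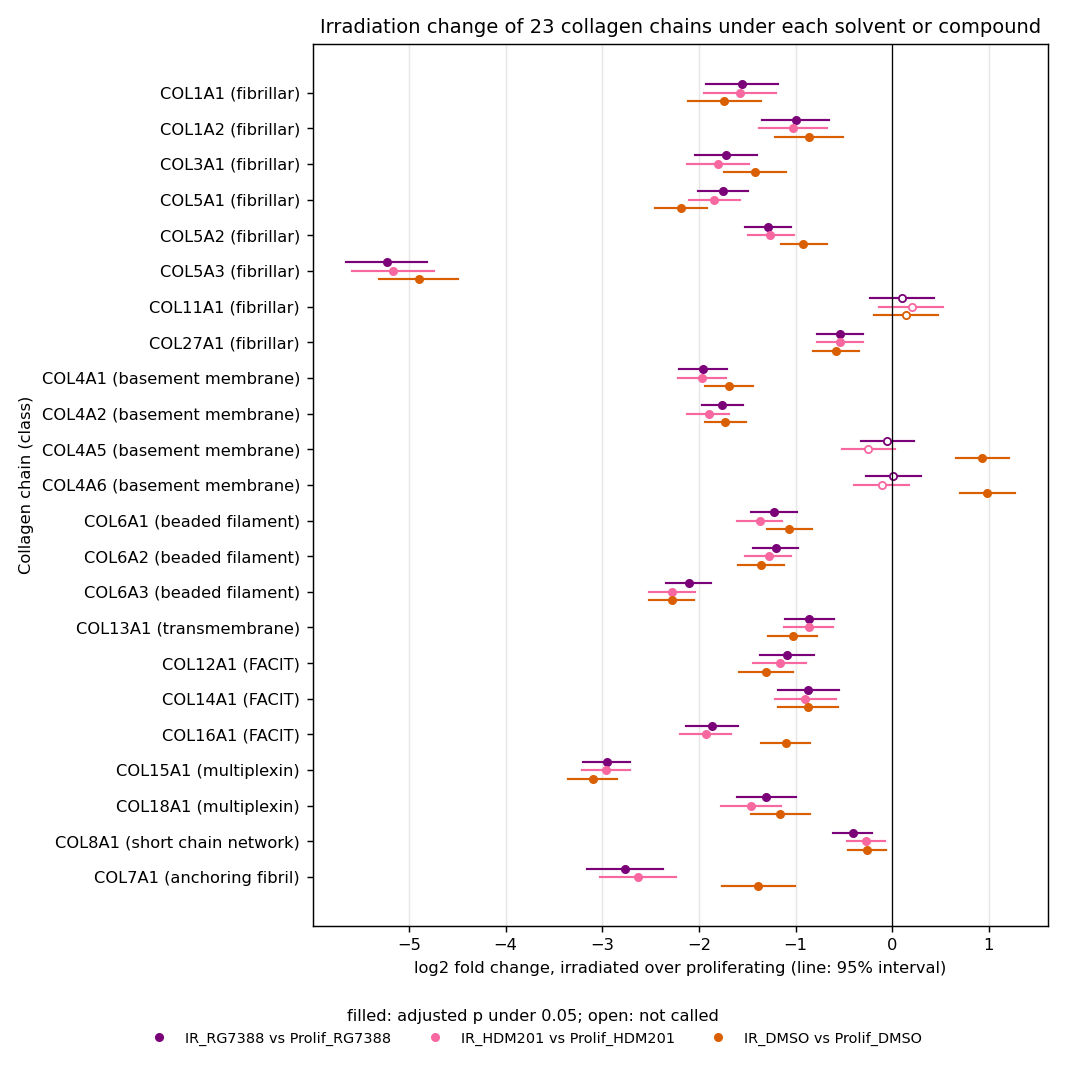
Log2 fold change of irradiated over proliferating cells (points, with 95% intervals as lines, filled where called) for the 23 collagen chains that averaged at least 10 CPM, under RG7388, under HDM201 and in DMSO. COL5A3 lies at -5.23, -5.17 and -4.90, whereas COL4A5 and COL4A6 lie at 0.93 and 0.98 in DMSO and between -0.25 and 0.01 under the compounds.

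The next comparison asked what MDM2 inhibition did to collagens in irradiated cells. In IR_RG7388 against IR_DMSO, 10 of 38 collagens were called lower and 3 higher, where 11.9% of all genes tested were lower and 10.9% higher. In IR_HDM201 against IR_DMSO, 13 were called lower and 1 higher, where 11.3% of all genes tested were lower and 9.96% higher. The collagen median was -0.25 with RG7388 and -0.40 with HDM201, against -0.03 and -0.02 for all genes. Both comparisons use the same IR_DMSO libraries. Without IR_DMSO replicate 1 and Prolif_HDM201 replicate 3, RG7388 had 8 called lower and 6 higher, and HDM201 had 12 called lower and 4 higher.

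Each of the type IV and fibrillar chains that irradiation had raised was lower with either compound, while COL10A1, raised too, was not called with either. These chains were picked by their rise in IR_DMSO, and the same IR_DMSO libraries are the reference here. The choice of chains therefore favours a fall. COL4A5 had 83.4, 83.3 and 71.8 CPM in IR_RG7388 and 75.5, 62.9 and 66.4 CPM in IR_HDM201, against 162.6, 118.5 and 112.5 CPM in IR_DMSO. It changed by -0.72 with RG7388 (SE 0.13, adjusted p 0.00017) and by -0.94 with HDM201 (SE 0.13, adjusted p 8.05e-06). COL4A6 had 20.5, 20.1 and 17.1 CPM in IR_RG7388 and 18, 16.8 and 16.2 CPM in IR_HDM201, against 47, 36 and 35.5 CPM in IR_DMSO. It changed by -1.04 (SE 0.13, adjusted p 2.09e-06) with RG7388 and by -1.21 (SE 0.13, adjusted p 3.3e-07) with HDM201. For both chains no compound library reached the lowest IR_DMSO library. COL24A1 had 4.21, 3.84 and 3.45 CPM in IR_RG7388 and 3.66, 4.48 and 3.64 CPM in IR_HDM201, against 7.23, 7.83 and 7.03 CPM in IR_DMSO (-0.94, adjusted p 0.000374, and -0.91, adjusted p 0.000668). COL11A2 changed by -1.06 (adjusted p 0.00495), which limma on log2(FPKM + 0.1) did not call (adjusted p 0.0624), and by -1.24 (adjusted p 0.00197).

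Some chains already lower after irradiation were lower still with a compound. COL7A1 had 42.6, 56 and 45.9 CPM in IR_RG7388 and 30.9, 42.5 and 47.8 CPM in IR_HDM201, against 175.5, 112.2 and 105.7 CPM in IR_DMSO. No compound library reached the lowest DMSO library (-1.45, SE 0.17, adjusted p 3.57e-06 for RG7388, and -1.70, SE 0.18, adjusted p 6.25e-07 for HDM201). COL16A1, a FACIT chain of connective tissue, had 69.2, 73.1 and 69.6 CPM in IR_RG7388 and 52.3, 56.7 and 65.7 CPM in IR_HDM201, against 157, 111.5 and 113.6 CPM in IR_DMSO, again with no overlap (-0.85, adjusted p 1.09e-05, and -1.13, adjusted p 2.66e-07). COL14A1 changed by -0.64 (adjusted p 0.00217) and -0.70 (adjusted p 0.00111).

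The type IX chains were called lower too. COL9A2 changed by -0.74 with RG7388 (adjusted p 0.0167), a call lost when IR_DMSO replicate 1 or IR_RG7388 replicate 2 was left out (adjusted p 0.066 to 0.0747). With HDM201 it changed by -1.19 (adjusted p 0.000592). COL9A3 had 30, 9 and 13 reads in IR_RG7388 and 23, 6 and 11 reads in IR_HDM201, against 75, 26 and 28 reads in IR_DMSO (-1.44, adjusted p 0.0129, and -1.46, adjusted p 0.0172). Both calls were lost without IR_DMSO replicate 1, the first also when IR_RG7388 replicate 2 was left out (0.057 to 0.142) and the second also without IR_HDM201 replicate 1 or 2 (adjusted p 0.0633 to 0.147).

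**Figure D4:**
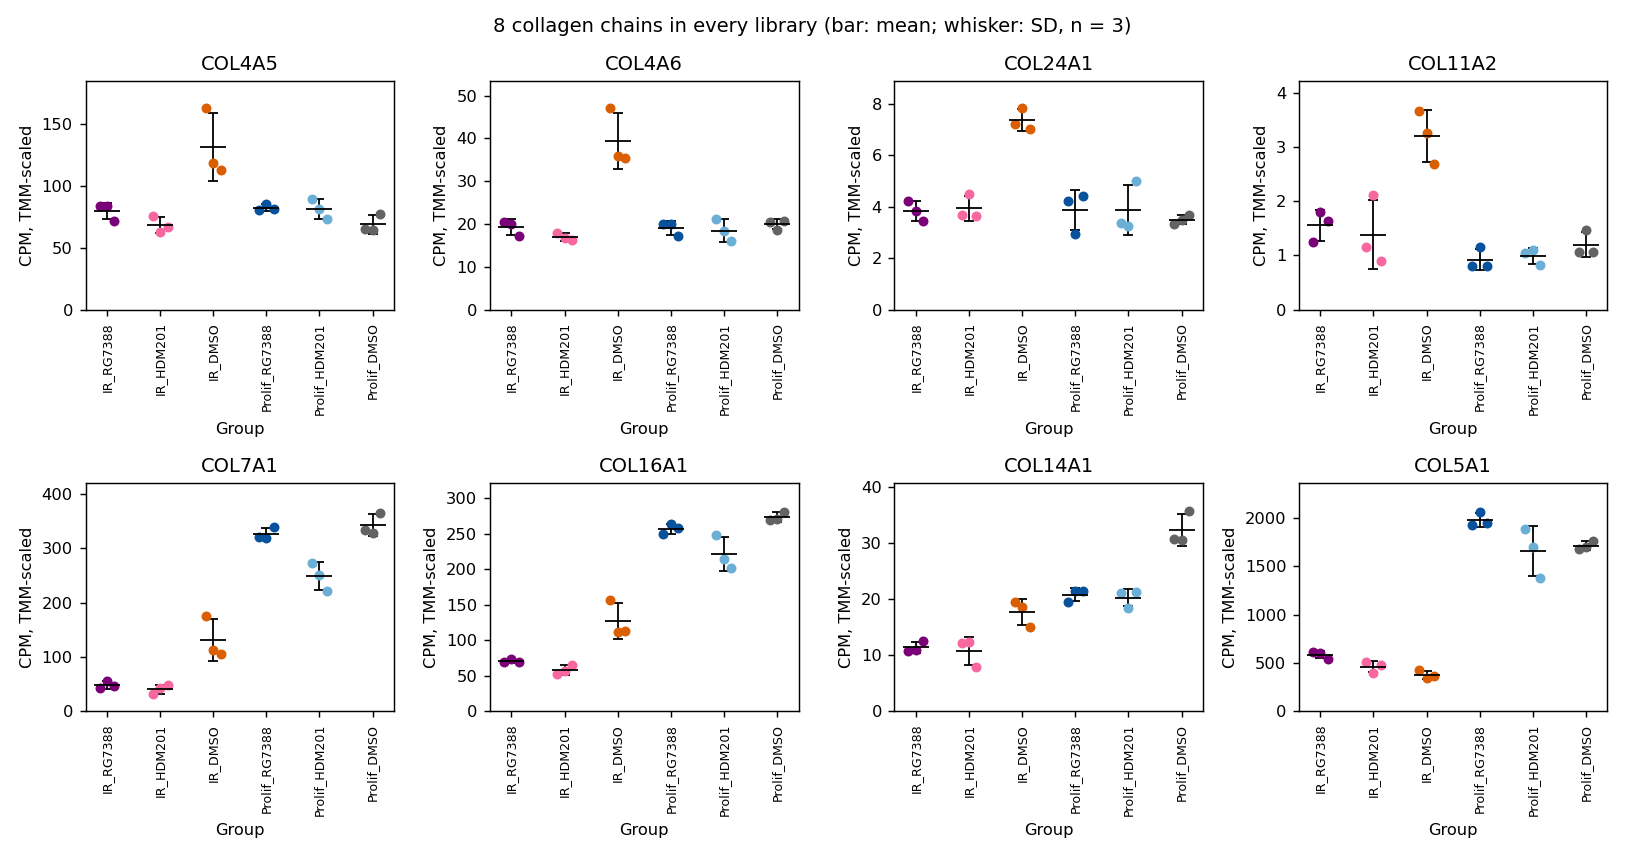
TMM-scaled CPM of 8 collagen chains in every library, by group (points), with the mean (bar) and SD (whisker, n = 3). COL4A5, COL4A6, COL24A1 and COL11A2 are highest in IR_DMSO, and COL7A1 and COL16A1 are lowest in IR_RG7388 and IR_HDM201.

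COL5A1 and COL13A1 went the other way. COL5A1 had 617.2, 601 and 543.4 CPM in IR_RG7388 and 507.7, 399.9 and 475.9 CPM in IR_HDM201, against 422.8, 339.9 and 367.6 CPM in IR_DMSO. It rose with RG7388 (0.64, SE 0.12, adjusted p 0.000265), while with HDM201 (0.29, SE 0.12) its adjusted p was 0.0773, and 0.0336 to 0.0344 without IR_DMSO replicate 1 or IR_HDM201 replicate 2. COL13A1 had 43.4, 46.4 and 44 CPM in IR_RG7388 and 40, 42.2 and 42.5 CPM in IR_HDM201, against 39.7, 26.1 and 29.9 CPM in IR_DMSO (0.48, adjusted p 0.00386, and 0.38, adjusted p 0.022). The HDM201 call was lost without IR_DMSO replicate 2 or 3 or IR_HDM201 replicate 2 or 3 (adjusted p 0.0578 to 0.158). Both calls were lost when libraries were scaled to totals alone (adjusted p 0.0973 with RG7388). The HDM201 call was also lost with limma on log2 FPKM and when the compared groups were fitted alone (adjusted p 0.105 to 0.26, totals included).

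Of the type VI chains COL6A3 was called higher with RG7388 (0.30, SE 0.10, adjusted p 0.0393), a call lost without any 1 of the IR_DMSO libraries or IR_RG7388 replicate 1 or 2 (adjusted p 0.0595 to 0.14). It was also lost with scaling to totals and with limma on log2 FPKM (adjusted p 0.305 to 0.396). COL6A1 was not called with RG7388 (0.00, adjusted p 0.988) or HDM201 (-0.29, adjusted p 0.0545), while with HDM201 COL6A1 was called lower without both libraries that stood apart (-0.25, adjusted p 0.0118), by DESeq2 (adjusted p 0.0334) and when libraries were scaled to totals (-0.44, adjusted p 0.000579). COL6A2 was not called with either (0.16, adjusted p 0.3, and -0.05, adjusted p 0.786).

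The type I and type III values in this comparison rested on 1 library. COL1A1 had 9622, 9071 and 8174 CPM in IR_RG7388 and 7601, 7127 and 7425 CPM in IR_HDM201, against 9178, 5241 and 5544 CPM in IR_DMSO. It was not called with RG7388 (0.43, adjusted p 0.0719) or HDM201 (0.15, adjusted p 0.578), but without IR_DMSO replicate 1 it was called higher with both (0.74, adjusted p 0.000572, and 0.46, adjusted p 0.0254). COL1A2 was not called either (0.19, adjusted p 0.446, and -0.07, adjusted p 0.808), and without that library it was at 0.52 (adjusted p 0.00393) and 0.26 (adjusted p 0.148, and 0.0153 without both libraries that stood apart). COL3A1 was called lower with both (-0.41, adjusted p 0.0435, and -0.55, adjusted p 0.00799), and without that library it was at -0.12 (adjusted p 0.523) and -0.27 (adjusted p 0.107). The RG7388 call of COL3A1 was also lost without IR_RG7388 replicate 1, 2 or 3 (adjusted p 0.0942 to 0.523 over the 4 libraries).

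With HDM201 COL5A2 was called lower (-0.34, adjusted p 0.0233), a call lost without IR_DMSO replicate 1 or IR_HDM201 replicate 2 or 3 (adjusted p 0.05 to 0.188). COL4A1 was called lower (-0.45, adjusted p 0.00533), a call lost without IR_DMSO replicate 1 (adjusted p 0.054) and with limma on log2(FPKM + 0.1) (adjusted p 0.0536). COL4A2 was called lower (-0.36, adjusted p 0.00859) in every fit that left out 1 library, though not without a filter on low counts (adjusted p 0.06). With RG7388 COL4A1 (-0.29, adjusted p 0.0644) and COL4A2 (-0.02, adjusted p 0.914) were not called. COL4A1 was called lower with RG7388 by DESeq2 (-0.29, adjusted p 0.0484), by limma on log2(FPKM + 1) (-0.46, adjusted p 0.0133) and with scaling to totals (-0.48, adjusted p 0.00188). COL4A2 was called lower by limma on log2(FPKM + 1) (-0.29, adjusted p 0.0343) and with scaling to totals (-0.21).

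In proliferating cells 1 collagen passed the test with each compound. In Prolif_RG7388 against Prolif_DMSO and in Prolif_HDM201 against Prolif_DMSO, 1 was called lower and 0 higher, where 0.342% of all genes tested were lower and 1.2% higher with RG7388 (1.54% in all), and 0.154% lower and 0.545% higher with HDM201 (0.7% in all). At an unadjusted p under 0.05 edgeR gave 3 higher and 4 lower with RG7388 and 0 higher and 6 lower with HDM201, and DESeq2 called 0 higher and 1 lower with each. The chain was COL14A1, of fibril surfaces, both times, against the same Prolif_DMSO libraries. It had 19.4, 21.4 and 21.5 CPM in Prolif_RG7388 and 21.1, 18.5 and 21.2 CPM in Prolif_HDM201, against 30.8, 30.6 and 35.7 CPM in Prolif_DMSO (-0.64, adjusted p 0.0208, and -0.67, adjusted p 0.0207). The first call was lost without Prolif_DMSO replicate 1 or 3 or any 1 Prolif_RG7388 library (adjusted p 0.0634 to 0.131), and the second without any 1 Prolif_DMSO library or Prolif_HDM201 replicate 1 or 2 (adjusted p 0.0582 to 0.153). Without Prolif_HDM201 replicate 3 and IR_DMSO replicate 1, HDM201 had 3 called lower (COL14A1, COL12A1 and COL25A1) and 1 higher (COL4A5, 0.32, adjusted p 0.0285).

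Whether a compound's effect differed between irradiated and proliferating cells was tested as the difference between both effects. Because the treatment time of the proliferating cells is not known, cell state and time on the compound cannot be told apart. For RG7388 the effect on 5 collagens was more negative in irradiated cells and on 0 more positive, where 5.27% and 2.2% of all genes tested were so called (7.47% in all). For HDM201 it was more negative for 6 and more positive for 0, where 5.67% and 2.97% of all genes tested were so called (8.64% in all). At an unadjusted p under 0.05 edgeR gave 1 more positive collagen for each compound, and DESeq2 called 0. COL7A1 differed by -1.38 for RG7388 (SE 0.24, adjusted p 0.00072) and -1.24 for HDM201 (SE 0.24, adjusted p 0.00197). In proliferating cells COL7A1 had 321.5, 318.9 and 339.7 CPM in Prolif_RG7388 and 273.8, 251.4 and 222.1 CPM in Prolif_HDM201, against 333.9, 329.1 and 366.1 CPM in Prolif_DMSO, and neither change was called.

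The other chains with such a difference were COL4A5, COL4A6 and COL24A1, which irradiation had raised, and the FACIT chains COL16A1 and COL9A2. COL11A2 and COL10A1, raised by irradiation too, were not called for either compound. The rise and the state difference of a chain share the IR_DMSO and Prolif_DMSO libraries, so they are not separate results. COL4A5 differed by -0.98 (adjusted p 0.000677) for RG7388 and -1.18 (adjusted p 8.18e-05) for HDM201, and COL4A6 by -0.97 (adjusted p 0.000975) and -1.10 (adjusted p 0.000272). COL24A1 differed by -1.09 (adjusted p 0.00778) and -1.08 (adjusted p 0.00808), and COL16A1 by -0.76 (adjusted p 0.0043) and -0.83 (adjusted p 0.00197). COL9A2 was called for HDM201 (-1.38, adjusted p 0.00684). All 11 calls held when any 1 library was left out, while limma on log2(FPKM + 0.1) did not give the HDM201 calls of COL16A1 and COL7A1 (adjusted p 0.0582 and 0.059). Without IR_DMSO replicate 1 and Prolif_HDM201 replicate 3, RG7388 had 8 calls, 3 of them more positive in irradiated cells (COL1A1 at 0.49, COL5A1 at 0.53 and COL13A1 at 0.37). HDM201 then had 8 calls, 7 more negative and 1 more positive, and COL13A1 (0.38, adjusted p 0.027) and COL6A1 (-0.40, adjusted p 0.00846) were those gained.

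Partner chains were also followed as ratios of counts per kilobase within each library. COL1A2/COL1A1 was 1.28, 1.26 and 1.22 in IR_DMSO, against 0.688, 0.694 and 0.676 in Prolif_DMSO. IR_DMSO replicate 1, which stood apart in level, was close to its partners in this ratio. The ratio was 1.07 ± 0.0483 in IR_RG7388 and 1.08 ± 0.0447 in IR_HDM201 (SD, n = 3 each), between the DMSO groups and overlapping neither. COL5A2/COL5A1 was 1.42 ± 0.0267 in IR_RG7388, 1.66 ± 0.225 in IR_HDM201 and 2.54 ± 0.218 in IR_DMSO, against 1.05 ± 0.0573 in Prolif_DMSO (SD, n = 3 each). COL3A1/COL1A1 was 0.128 ± 0.00775 in IR_RG7388, 0.14 ± 0.00824 in IR_HDM201 and 0.229 ± 0.0176 in IR_DMSO, against 0.183 ± 0.00665 in Prolif_DMSO. Neither of these ratios overlapped between IR_DMSO and an irradiated compound group. In proliferating cells COL3A1/COL1A1 was 0.143 ± 0.00662 with RG7388, below every Prolif_DMSO library, and 0.166 ± 0.014 with HDM201, overlapping them. COL1A2/COL1A1 was 0.726 ± 0.0228 and 0.745 ± 0.0458 there, above every Prolif_DMSO library. COL5A2/COL5A1 was 1.03 ± 0.0857 and 1.11 ± 0.173, overlapping them. Compound effects on the ratios in proliferating cells were not tested.

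Of the type VI ratios, COL6A3/COL6A1 was 0.277 ± 0.024 in IR_DMSO and 0.645 ± 0.0589 in Prolif_DMSO, and COL6A2/COL6A1 was 1.08 ± 0.127 in IR_DMSO and 1.32 ± 0.019 in Prolif_DMSO (SD, n = 3 each). COL6A2/COL6A1 was also below every Prolif_DMSO library in Prolif_RG7388 (1.19 ± 0.028) and Prolif_HDM201 (1.19 ± 0.037). COL6A3/COL6A1 was 0.63 ± 0.0174 and 0.583 ± 0.0268 in these groups. COL4A2/COL4A1 was 0.85, 1.1 and 1.14 in IR_DMSO, against 1.08, 1.04 and 0.996 in Prolif_DMSO, with replicate 1 the low irradiated library and the groups overlapping (two-sided exact permutation p 1). In IR_RG7388 it was 1.22 ± 0.0502 (SD, n = 3), above every IR_DMSO library. In 15 of the 18 ratio comparisons the groups did not overlap, which gives a two-sided exact permutation p of 0.1, the smallest that 3 against 3 allows, and 0.12 after adjustment over the 18. No ratio could therefore pass a threshold of 0.05. Ratios of other gene pairs were not counted, so 15 of 18 has no background. Of all genes tested singly, 61.2% did not overlap in IR_DMSO against Prolif_DMSO. The share was 44.3% in IR_RG7388 against IR_DMSO and 36.2% in IR_HDM201 against IR_DMSO.

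**Figure D5:**
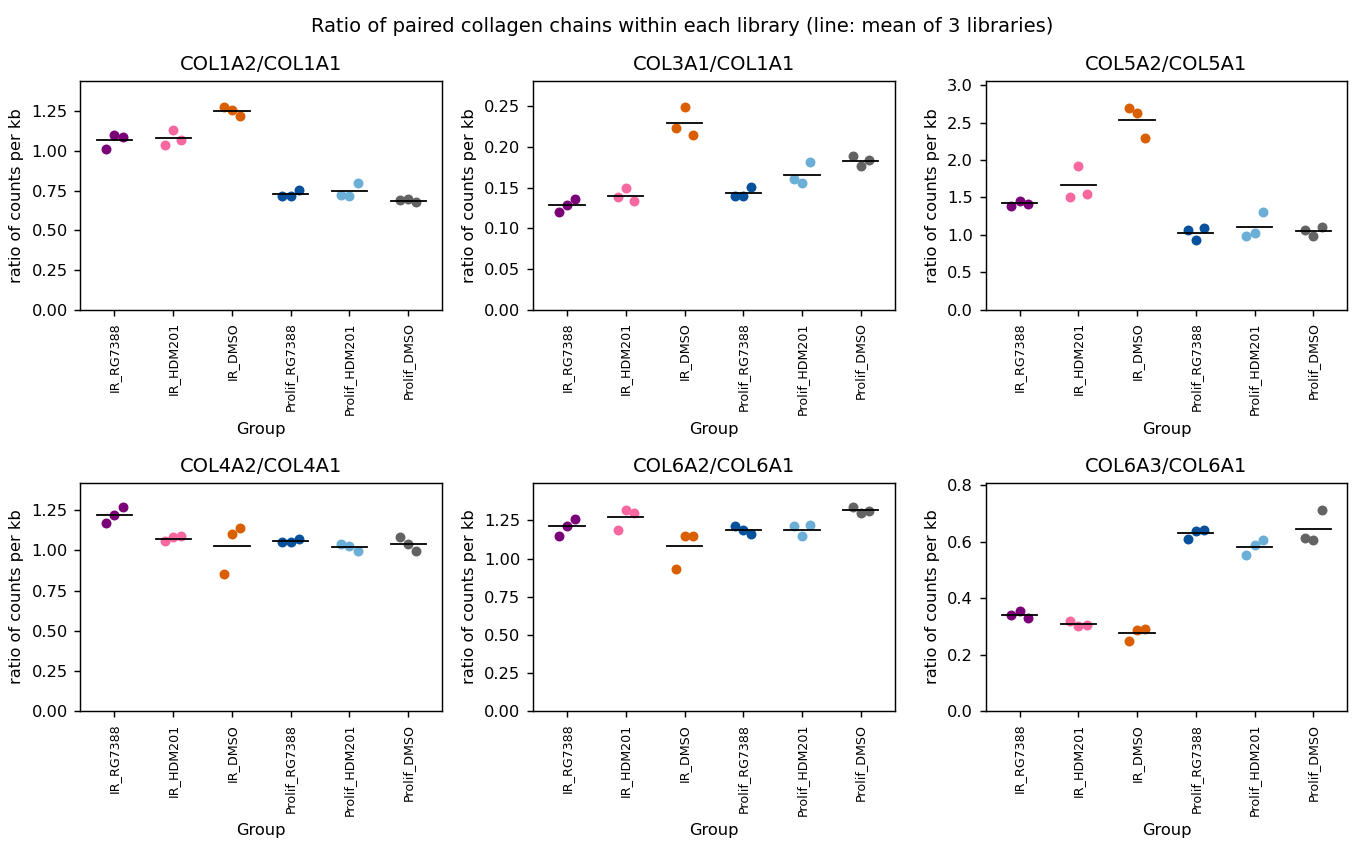
Ratio of partner collagen chains within each library (points, with the group mean as a line), from counts per kilobase of canonical transcript, by group. COL1A2/COL1A1 and COL5A2/COL5A1 are highest in IR_DMSO, COL6A3/COL6A1 is higher in the 9 proliferating libraries, and COL4A2/COL4A1 stays between 0.85 and 1.27.

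The machinery that folds, trims and binds collagen was read from 3 gene lists. Of 21 folding and modification genes, 10 fell and 4 rose in IR_DMSO against Prolif_DMSO (median -0.26), where 25.3% of all genes tested fell and 26.3% rose (51.6% in all). SERPINH1, the collagen chaperone HSP47, was at 418 ± 14.4 CPM in IR_DMSO and 1580 ± 113 CPM in Prolif_DMSO (SD, n = 3 each; -1.91, adjusted p 8.62e-13). The prolyl 3-hydroxylase P3H1 (-1.22, adjusted p 4.62e-09) and the galactosyltransferase COLGALT1 (-1.05, adjusted p 8.35e-09) fell, whereas P3H2 (0.82, adjusted p 6.13e-07) and the lysyl hydroxylase PLOD2 (1.11, adjusted p 6.19e-05) rose. Of 7 tested procollagen trimming genes 5 fell and 1 rose, TLL2, which averaged 0.479 CPM in IR_DMSO and 0.121 CPM in Prolif_DMSO. PCOLCE, which speeds removal of the C-terminal propeptide, was at 37.9 ± 7.82 CPM in IR_DMSO and 376 ± 24 CPM in Prolif_DMSO (SD, n = 3 each; -3.31, adjusted p 3.19e-14). The proteases ADAMTS2 (-1.62, adjusted p 1.11e-10) and BMP1 (-1.0, adjusted p 3.42e-08) fell too. Of 8 tested collagen receptors 3 fell, ITGA11 (-1.46), MRC2 (-0.92) and ITGA10 (-1.26), and DDR1 rose (0.84), with adjusted p of 9.03e-06 or less. The 4 called receptors of 8 were near the share over all genes.

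With the compounds in irradiated cells, RG7388 raised 5 and lowered 2 of the 21 folding genes and HDM201 raised 3 and lowered 1. Of all genes tested 10.9% were higher and 11.9% lower with RG7388, and 9.96% higher and 11.3% lower with HDM201, so the HDM201 counts lay near or below that background. P3H2 was higher (0.84, adjusted p 1.98e-06, with RG7388 and 0.87, adjusted p 1.62e-06, with HDM201). P4HA3, a prolyl 4-hydroxylase subunit, was at 5.22 ± 0.602 CPM in IR_RG7388 and 4.96 ± 0.844 CPM in IR_HDM201, against 16.3 ± 3.33 CPM in IR_DMSO (SD, n = 3 each; -1.64, adjusted p 6.47e-08, and -1.74, adjusted p 5.43e-08). Among trimming genes ADAMTS2 rose with both (0.63, adjusted p 0.000366, and 0.46, adjusted p 0.00735), and ADAMTS14 fell with HDM201 (-0.75, adjusted p 0.0271). Of the receptors ITGA11 was called, higher with RG7388 (0.41, adjusted p 0.013).

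The 6 chains too low to test were COL4A4, COL6A6, COL23A1, COL9A1, COL19A1 and COL26A1, whose highest counts in any library were 17, 11, 26, 25, 15 and 27 reads. COL20A1, COL21A1, COL22A1 and COL28A1 were tested, averaged under 1 CPM in every group and were called in no comparison. Summed over the 16 chains that averaged under 1 CPM, Prolif_HDM201 replicate 3 had 8.27 CPM and Prolif_DMSO replicate 1 had 6.8 CPM, while the others had 1.27 to 5.65 CPM. COL6A5 had 46 reads in Prolif_DMSO replicate 1, 26 in Prolif_HDM201 replicate 3, 21 in IR_HDM201 replicate 1 and at most 5 in any other library. COL9A3 and COL10A1 were the 2 of these 16 chains called in a comparison, with the calls and their losses given above.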

How the data were processed

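RNA-seq of IMR90 cells was analysed in 18 libraries, 6 groups of 3, each grouped by its label. The authors aligned reads to hg38 with STAR, and they deposited gene counts from HTSeq and FPKM from Cufflinks. Their versions, the annotation and the strand setting were not stated in the sources used here. Of the 44 collagens 26 overlap another gene, 21 of them on the opposite strand, counted over the whole gene with introns. Whether reads in opposite-strand overlaps were told apart depends on the strand setting and is not known.

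The deposited counts held 60668 rows, and 45 pseudoautosomal copies were left out. They were tested with edgeR 4.0.16 (R 4.3.3): filterByExpr by group, TMM scaling, 1 mean per group, a robust quasi-likelihood fit over all libraries (12 residual degrees of freedom) and Benjamini-Hochberg adjustment over 18151 genes, called at 0.05. The SE is the size of the log2 fold change divided by the square root of F. Exact permutation tests used SciPy 1.17.1 (Python 3.11.15). Library totals of 21609198 to 66647700 set the precision of low counts.

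The FPKM deposited by the authors were blank for COL1A1 in 5 libraries and for COL1A2 in 1, although counts were high. Shares and ratios were therefore taken from counts per kilobase of canonical transcript (GENCODE release 44, which matched 99.46% of gene IDs), in place of the planned FPKM, and FPKM became the alternative.

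The alternatives were other scalings, filters, thresholds and fold minimums, fits on the compared groups, a replicate block, each library left out, IR_DMSO replicate 1 and Prolif_HDM201 replicate 3 left out together, DESeq2 1.42.0, and limma 3.58.1 on log2(FPKM + 1) or log2(FPKM + 0.1). Every collagen was described, with values per library for those of the main classes and those called, and list genes by lowest adjusted p, with PLOD2 and TLL2 named after their values were seen. Members, classes and lists were chosen with earlier results of these data known.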

Additional observations from a re-analysis of the deposited data

Results flagged for a closer look

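In 11 cases the effect of a compound on a collagen differed between irradiated and proliferating cells by a test of the difference itself (edgeR, adjusted over 18151 genes). For RG7388 the irradiated effect minus the proliferating effect, as log2 fold change, was -1.38 for COL7A1, -1.09 for COL24A1, -0.98 for COL4A5, -0.97 for COL4A6 and -0.76 for COL16A1. For HDM201 it was -1.38 for COL9A2, -1.24 for COL7A1, -1.18 for COL4A5, -1.10 for COL4A6, -1.08 for COL24A1 and -0.83 for COL16A1. Both compounds were set against the same DMSO libraries.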

How the results depend on the processing

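Of the collagens called in the main fit, 22 of 25 (IR_DMSO against Prolif_DMSO), 19 of 23 (IR_RG7388 against Prolif_RG7388), 17 of 24 (IR_HDM201 against Prolif_HDM201), 7 of 13 (IR_RG7388 against IR_DMSO), 8 of 14 (IR_HDM201 against IR_DMSO), 0 of 1 in each proliferating comparison, 5 of 5 (RG7388 by state) and 4 of 6 (HDM201 by state) were called in every alternative fit. These counts leave out the stricter threshold and the fold minimum, and a fit that filtered a chain out did not count against it. Of 45 same-number pairs 10 correlated over 0.1 (-0.229 to 0.269), and 10 of 18 libraries correlated best with their own number. The level expected without pairing was not worked out, so these values do not settle whether replicate numbers pair the libraries. The main fit took no pairing. With the replicate block 25, 23, 24, 14, 15, 1, 1, 5 and 6 collagens were called in these 9 comparisons, and the block added the calls of COL1A1 in IR_RG7388 against IR_DMSO (adjusted p 0.0385) and COL6A1 in IR_HDM201 against IR_DMSO (adjusted p 0.0494). A 2-fold minimum left 4 calls in IR_RG7388 against IR_DMSO, 6 in IR_HDM201 against IR_DMSO and 2 for RG7388 by state. Without both libraries that stood apart, RG7388 by state had 8 calls and Prolif_HDM201 against Prolif_DMSO 4. Each proliferating comparison had 0 calls with limma, at an adjusted p under 0.01 and with a 2-fold minimum, and 0 to 1 without 1 library. Fitted on their own groups, they had 4 calls for RG7388 and 0 for HDM201.

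Scaling to library totals moved the median of all genes by 0.289 in IR_DMSO against Prolif_DMSO, 0.156 and 0.145 in the other irradiation comparisons, -0.187 in IR_RG7388 against IR_DMSO and -0.147 in IR_HDM201 against IR_DMSO. It turned the sign of COL8A1 in IR_DMSO against Prolif_DMSO (0.03, and 0.02 with limma), of COL1A2 (-0.01) and COL6A2 (-0.02, and -0.07 with limma) in IR_RG7388 against IR_DMSO, and of COL1A1 in IR_HDM201 against IR_DMSO (0.00). In IR_RG7388 against IR_DMSO, COL4A2 was at 0.02 and COL6A1 at 0.04 without a filter, COL4A2 at -0.04 to 0.02 and COL6A1 at -0.03 to 0.04 without single libraries (COL4A2 at 0.00 without IR_DMSO replicate 3 and COL6A1 at 0.03 without IR_RG7388 replicate 3), and COL6A1 at 0.04 without both libraries that stood apart. COL1A2 in IR_HDM201 against IR_DMSO was at -0.22 to 0.26 without single libraries, the highest without IR_DMSO replicate 1, and at 0.26 without both. Of these chains COL8A1 alone was called in the main fit.

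Class medians over few chains moved most. In IR_DMSO against Prolif_DMSO the fibrillar median was -0.56 with totals, -1.08 without both libraries, -0.62 and -0.63 with limma (pseudocounts 1 and 0.1), and -1.08 to -0.73 without single libraries. The basement membrane median was -1.18 with totals, -0.56 unfiltered, -0.37 at a minimum of 1 CPM, -1.75 without both libraries, -0.04, -0.33 and -0.10 with limma (the last at a minimum FPKM of 1), and -1.75 to 0.01 without single libraries. The beaded filament median was -1.39, -1.34, -1.35, -1.43, -0.86, -0.86 and -0.98 in the same order, and -1.85 to -1.22 without single libraries. The transmembrane median was -0.52 with totals, 0.00 and -0.14 with limma, and -1.01 to -0.74 without single libraries.

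In IR_RG7388 against IR_DMSO the medians with totals were -0.34 (fibrillar), -0.48 (basement membrane) and -0.08 (beaded filament). Unfiltered, they were -0.11 (basement membrane) and -0.42 (transmembrane), and at 1 CPM -0.54 (basement membrane). With limma they were -0.62 (basement membrane), -0.04, -0.08 and -0.07 (beaded filament), and -0.19 and 0.41 (transmembrane). Without single libraries they spanned -0.25 to -0.04, -0.36 to -0.14, 0.07 to 0.25 and -0.92 to -0.52 for the classes in this order. In IR_HDM201 against IR_DMSO the fibrillar median was -0.18 and -0.17 with limma, the basement membrane median -0.72 at 1 CPM and -0.78 with limma, the beaded filament median -0.24 with totals and limma, and the transmembrane median -0.11, -0.21 and 0.22 with limma. Without single libraries they spanned -0.43 to -0.19, -0.52 to -0.36, -0.25 to -0.05 and -1.30 to -0.43.

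With FPKM the basement membrane share was 5.55% in IR_RG7388, 5.87% in IR_HDM201 and 7.13% in IR_DMSO, the fibrillar share 57.5% in IR_RG7388 and 56.8% in IR_HDM201, and the beaded filament share 31.8% and 32.0%. The log2 difference of COL4A2/COL4A1 became 0.04 in IR_DMSO against Prolif_DMSO and -0.12 in IR_HDM201 against IR_DMSO. The cause of these moves was not tested. Chains with few reads per library carry the least precise values.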
